A study of Mus musculus with 4 samples.

Results

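DNA modification at 10 genes of the intercalated disc was described in mouse left ventricle 3 days after myocardial infarction. The genes, chosen by name with earlier results of these data known, were Dsp, Pkp2, Jup, Dsg2, Dsc2, Cdh2, Ctnna3, Xirp1, Xirp2 and Popdc2. Their members on the DNA were the CCGG sites that lay within the mm10 span of a gene or 2 kb either side and were listed in all 4 samples, which gave 738 of 996020 such sites. The genes are 10 of 20665 protein-coding autosomal genes, of which 16887 held at least 5 sites and form the background used throughout. The samples were Neil3-/- infarcted, Neil3-/- non-infarcted, wild-type infarcted and wild-type non-infarcted left ventricle, with 1 sample per group. All mice were C57BL/6 and 8 weeks old, and the labels place the non-infarcted tissue, too, 3 days after infarction. Neil3 encodes a DNA glycosylase, a repair enzyme that removes oxidized bases. The number of animals behind a sample, the design of the Neil3 deletion, and whether infarcted and non-infarcted tissue came from the same hearts are details that the labels leave out. With 1 sample per group, no difference below has a replicate check.

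Heart muscle cells are joined end to end at the intercalated disc. Desmosomes there anchor intermediate filaments, adherens junctions anchor actin, and in the mammalian heart both kinds of junction mix in a structure called the area composita. Mutations in desmosomal genes are a known cause of arrhythmogenic cardiomyopathy. The assay, HMST-seq, reads sequence tags next to CCGG motifs after enzyme digestion. HpaII cuts CCGG only when the inner cytosine is unmodified, and MspI cuts it also when that cytosine carries 5-methylcytosine (5mC) or 5-hydroxymethylcytosine (5hmC). In the remaining library, named C+mC by the labels, 5hmC was glucosylated first, which protects it from MspI. The ratio of HpaII to MspI signal, given in percent, therefore goes up as a site loses modification, and the ratio of C+mC to MspI signal goes up as it loses 5hmC. The authors' normalization brought the libraries of a sample to similar totals, so both ratios are relative and may exceed 100%. A site is named by the 1-based position of its first C.

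Promoter windows from RefSeq (build GRCm38.p6, 250 bases before to 50 after a start) were available for 5 of the 10 genes, and 4 of them hold a CCGG motif near an annotated start of transcription. They are shown because these motifs are the sites read by the assay at the gene starts. Each is written 5′ to 3′ along the gene, with CCGG in capitals. The windows are chr16:38361940-38362239 (plus strand) for Popdc2, chr13:38151044-38151343 (plus strand) for Dsp, chr11:100397741-100398040 (minus strand) for Jup and chr10:63429848-63430147 (plus strand) for Ctnna3.
Popdc2: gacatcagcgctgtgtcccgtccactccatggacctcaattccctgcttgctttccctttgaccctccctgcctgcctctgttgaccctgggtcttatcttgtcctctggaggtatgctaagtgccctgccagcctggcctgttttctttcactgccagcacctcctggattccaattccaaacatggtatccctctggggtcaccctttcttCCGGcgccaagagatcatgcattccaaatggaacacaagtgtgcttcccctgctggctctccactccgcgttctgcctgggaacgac
Dsp: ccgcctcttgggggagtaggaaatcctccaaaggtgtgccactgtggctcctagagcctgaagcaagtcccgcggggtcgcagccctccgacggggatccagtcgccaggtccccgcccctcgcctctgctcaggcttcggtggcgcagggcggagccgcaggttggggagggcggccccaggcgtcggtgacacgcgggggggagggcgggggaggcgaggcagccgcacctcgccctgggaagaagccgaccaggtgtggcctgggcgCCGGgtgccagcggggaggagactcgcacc
Jup: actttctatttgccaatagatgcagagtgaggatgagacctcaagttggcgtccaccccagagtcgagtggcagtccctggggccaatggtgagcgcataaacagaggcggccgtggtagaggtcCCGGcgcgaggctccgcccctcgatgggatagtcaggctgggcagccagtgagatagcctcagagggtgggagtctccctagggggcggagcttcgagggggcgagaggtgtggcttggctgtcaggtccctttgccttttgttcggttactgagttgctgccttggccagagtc
Ctnna3: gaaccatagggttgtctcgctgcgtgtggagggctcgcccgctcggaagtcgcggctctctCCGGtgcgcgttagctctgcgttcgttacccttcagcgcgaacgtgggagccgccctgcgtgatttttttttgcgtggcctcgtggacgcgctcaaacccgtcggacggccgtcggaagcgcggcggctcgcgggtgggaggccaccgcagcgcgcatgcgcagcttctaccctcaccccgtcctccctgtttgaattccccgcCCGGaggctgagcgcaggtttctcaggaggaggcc
The motif CCGG reads the same on both strands, and the windows hold 1, 1, 1 and 2 copies in this order. Of 31365 autosomal promoter windows of this length, 16768 (53.5%) held the motif. The Xirp2 window held none. CpG density differed widely, from 39 CpG dinucleotides in the Ctnna3 window and 27 in that of Dsp to 14 in Jup, 7 in Popdc2 and 1 in Xirp2.

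All 5 of these promoter motifs were listed in every sample. The Popdc2 motif, 37 bp upstream of the start, had HpaII/MspI ratios of 83.0% in Neil3-null infarcted, 112.7% in Neil3-null non-infarcted, 103.4% in wild-type infarcted and 125.6% in wild-type non-infarcted tissue. Infarcted tissue was lower in both genotypes at this site. The Dsp motif, 20 bp downstream of the start, had 692.7%, 562.0%, 822.9% and 486.6% in the same order of samples, far above the median gene, on MspI signals of only 14.6 to 21.3. At Jup, whose motif lies 125 bp upstream of the start, the ratios were 970.5%, 805.9%, 519.0% and 546.2%, on MspI signals of 7.05 to 13.7. The Dsp and Jup motifs thus had a low MspI signal, against medians of 25.3 to 30.8 per site in the MspI libraries. MspI signal is the denominator, so the size of these ratios is uncertain. The Ctnna3 motif 189 bp upstream of the start gave 251.5%, 246.7%, 240.9% and 252.3%, close to equal in the 4 samples. The second Ctnna3 motif, 15 bp downstream, gave 123.9%, 184.8%, 115.4% and 161.2%, lower in the infarcted sample of each genotype.

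More sites lie within 1 kb of these starts. In Popdc2 the sites 173, 334, 779 and 955 bp downstream had 225.4%, 88.8%, 109.3% and 153.6% in Neil3-null infarcted and 241.3%, 91.3%, 150.1% and 249.7% in Neil3-null non-infarcted tissue. In wild-type tissue they had 195.6%, 107.5%, 110.6% and 134.3% infarcted and 251.6%, 87.5%, 128.7% and 186.6% non-infarcted. The site at 334 bp was higher in infarcted wild-type tissue, and each of the others was lower in infarcted tissue of both genotypes. The Dsp site 217 bp downstream had 256.1% and 184.1% in the Neil3-null and 268.5% and 204.6% in the wild-type pair, infarcted given before non-infarcted, and was higher after infarct in both. The Dsp site at 359 bp went the other way, with 580.2% and 752.6%, and with 464.2% and 848.9%. For Jup the site 921 bp downstream had 414.6% and 356.2%, and 496.7% and 362.4%, higher after infarct. In Ctnna3 the site 167 bp downstream had 479.1% and 268.8%, and 381.7% and 354.9%. Around a second annotated start of Ctnna3, inside the gene, 4 sites (63820161 to 63821071) ranged from 36.4% to 252.6% with no direction common to all of them.

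Total signal per library ran from 34161766 (wild-type infarcted, C+mC) to 43985354 (wild-type non-infarcted, MspI), and all 3 libraries of wild-type infarcted tissue had the lowest totals. No interval for counting error is printed, because the files hold no tag numbers. In the Neil3 span, 15 sites were listed in Neil3-null infarcted, 17 in Neil3-null non-infarcted, 17 in wild-type infarcted and 19 in wild-type non-infarcted tissue. One site was listed in both wild-type and neither null sample, but the extent of the deletion is unknown, so this checks little. Over genes, C+mC/MspI spread most widely in the wild-type non-infarcted sample. Its 95th percentile was 168.3% there, and lay between 139.4% and 146.2% in each of the others, which touches every C+mC difference that uses the sample.

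The 10 genes differed greatly in size and in CCGG content (all coordinates GRCm38/mm10). The Xin-repeat gene Xirp1 (chromosome 9, 120013755 to 120023598) is the shortest and densest, with 25 sites or 18.1 per 10 kb of extended span. Ctnna3 (chromosome 10, 63430098 to 65003667) is the longest, with 437 sites or 2.77 per 10 kb. Jup (chromosome 11, 100368856 to 100397839) and Dsp (chromosome 13, 38151294 to 38198577) had 41 sites each, and Cdh2 (chromosome 18, 16588877 to 16809246) had 86. Pkp2 (chromosome 16, 16213345 to 16272712) had 25, Popdc2 (chromosome 16, 38362161 to 38378216) 21 and Xirp2 (chromosome 2, 67446000 to 67526620) 27. The desmosomal cadherin genes lie near each other on chromosome 18, Dsg2 at 20558074 to 20604526 with 23 sites and Dsc2 at 20030633 to 20059554 with 12. No other protein-coding gene overlaps any of them except Ctnna3, whose span contains Lrrtm3 and 70 sites shared with it. Over all 10 genes 811 sites were listed in at least 1 sample. Of those, 4 appeared in both wild-type and neither null sample (3 in Ctnna3 and 1 in Cdh2) and 2 the other way round (both in Ctnna3). The share of such sites over the whole series was not counted, so these counts are not read as a genotype difference.

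Among the desmosomal plaque genes, Jup had the highest HpaII/MspI ratio of the 10 genes and Dsp lay below the median gene. Jup, which encodes plakoglobin, a protein of both desmosomes and adherens junctions, had 147.8% in Neil3-null infarcted, 157.4% in Neil3-null non-infarcted, 142.6% in wild-type infarcted and 155.2% in wild-type non-infarcted tissue. Dsp, which encodes desmoplakin, the link from the plaque to intermediate filaments, had 96.4%, 95.4%, 91.7% and 102.8% in the same order. Pkp2, which encodes the plaque protein plakophilin-2, had 120.0%, 127.9%, 115.0% and 113.2%. The median of all 16887 genes was 119.2%, 116.7%, 119.0% and 113.5%, so Pkp2 was close to it in infarcted tissue and in wild-type non-infarcted tissue.

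The cadherins were spread over a similar range. Dsc2, a desmosomal cadherin gene, had 137.0% in Neil3-null infarcted, 124.9% in Neil3-null non-infarcted, 128.7% in wild-type infarcted and 126.6% in wild-type non-infarcted tissue. Its partner Dsg2 had 103.3%, 101.8%, 100.4% and 103.8%, the smallest range of the 10 genes. Cdh2, which encodes N-cadherin, the adherens junction cadherin of heart muscle, had 88.9%, 93.1%, 90.9% and 93.7%. Ctnna3 encodes αT-catenin, which binds plakophilin-2 in the area composita, and it had 83.4%, 81.7%, 83.3% and 77.7%.

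The actin-binding Xin-repeat genes were unlike each other. Xirp1 had 125.8% in Neil3-null infarcted, 138.9% in Neil3-null non-infarcted, 116.2% in wild-type infarcted and 125.6% in wild-type non-infarcted tissue. Xirp2 had 74.9%, 76.7%, 76.3% and 68.2%, the lowest ratios of the group and at percentiles 5.43 to 8.10 of all genes. Popdc2, which encodes a Popeye domain protein that binds cyclic AMP, had 112.5%, 136.7%, 112.1% and 125.3%. Both Popdc2 and Xirp1 were lower in infarcted than in non-infarcted tissue of the same genotype.

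**Figure D1:**
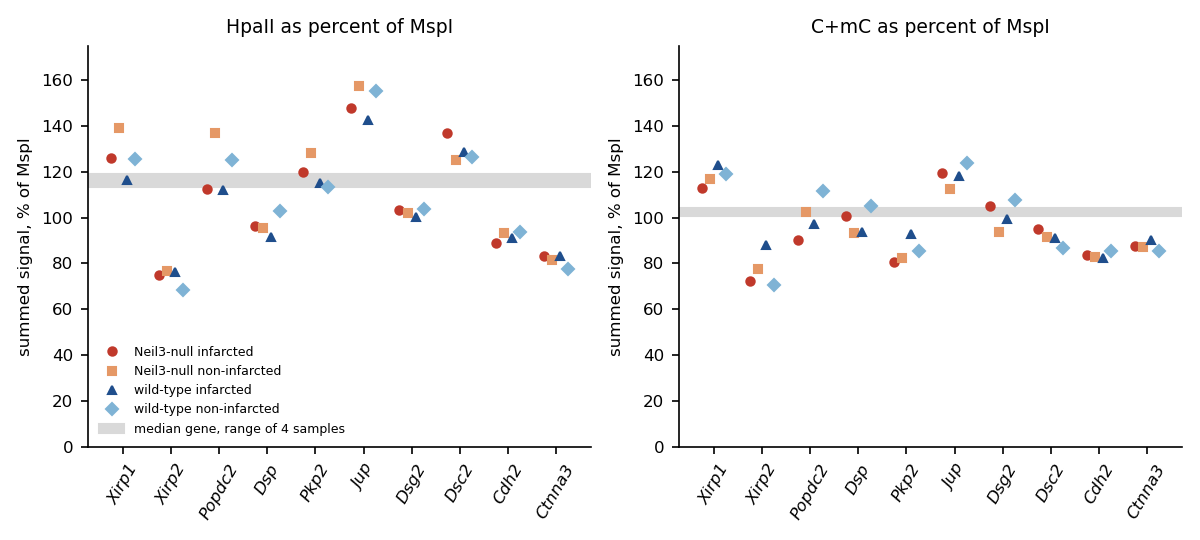
Summed HpaII (left) and C+mC (right) signal as a percent of summed MspI signal for each gene in the 4 samples, 1 point per sample, with the range of the median gene as a grey band. Jup sits highest at 142.6% to 157.4% HpaII/MspI and Xirp2 lowest at 68.2% to 76.7%.

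Within a gene the ratio depended strongly on position, and the starts of Jup, Dsp and Ctnna3 stood far above the interiors. Sites within 2 kb of an end were separated from interior sites, those more than 2 kb inside both ends. The Jup end that holds its start had 790.8% in Neil3-null infarcted, 696.4% in Neil3-null non-infarcted, 754.3% in wild-type infarcted and 659.0% in wild-type non-infarcted tissue over 4 sites, while its interior had 138.6%, 149.4%, 131.9% and 152.0% over 31. At the start of Dsp, 6 sites together had 314.7%, 237.8%, 251.1% and 280.5%, against 26.9%, 30.3%, 24.2% and 34.3% over 4 sites at its opposite end. Ctnna3 had 183.5%, 189.7%, 181.9% and 193.2% over 4 sites at its start, and 82.0%, 80.5%, 81.9% and 76.2% over 430 interior sites. In Popdc2 the start was closer to the interior, with 120.4%, 154.8%, 130.9% and 140.3% over the 7 sites at its start and 76.2%, 101.4%, 71.8% and 95.2% over 10 interior sites. The opposite end of Popdc2 (4 sites) stood above its start in every sample, at 173.0% to 192.9%. For Dsg2, Pkp2, Dsc2 and Cdh2 the strand is not in the tables used here. One end of each stood far above the rest, with ratios of 392.1% to 494.0% at the lower-coordinate end of Dsg2 (3 sites), 387.9% to 646.8% at that of Pkp2 (3 sites), 170.8% to 221.5% at the higher-coordinate end of Dsc2 (4 sites) and 223.2% to 297.5% at that of Cdh2 (5 sites). Xirp2 has no listed site at its start, and Xirp1 showed only a modest contrast, with 153.1% to 184.6% at its lower-coordinate end and 83.4% to 103.6% at its higher-coordinate end.

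**Figure D2:**
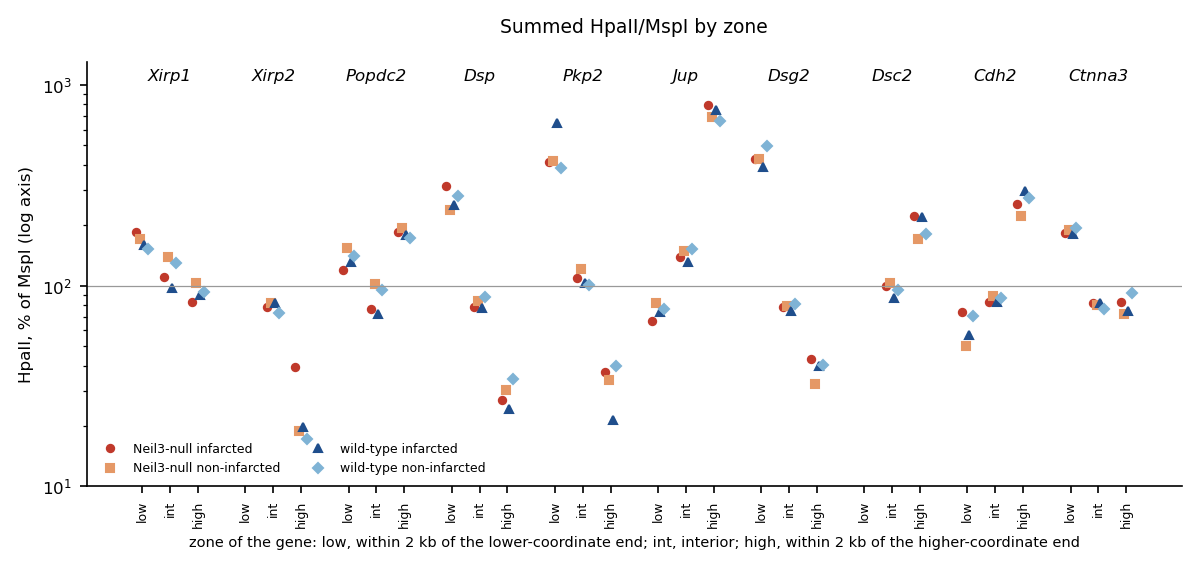
HpaII/MspI ratio in percent (log axis) in the lower-coordinate end, the interior and the higher-coordinate end of each gene, 1 point per sample. Jup, Dsg2, Pkp2, Dsp, Cdh2, Dsc2, Ctnna3 and Xirp1 each have 1 end well above 100% in all 4 samples. Popdc2 has both ends above 100%.

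Dsp shows this contrast site by site. Its site of strongest MspI signal (mean 191.8), at position 38159790, lies 8.50 kb from the start and had 23.1% in Neil3-null infarcted, 30.4% in Neil3-null non-infarcted, 27.7% in wild-type infarcted and 41.3% in wild-type non-infarcted tissue. HpaII gave far less signal than MspI there in every sample, at a site picked for its high MspI signal. Of the Dsp sites named next, all were chosen after their values were seen. Near the far end, the site at 38197805, 46.5 kb from the start, had 3.18%, 2.93%, 2.63% and 2.17%, so HpaII hardly cut it in any sample. The site at 38196437, 45.1 kb from the start, had 6.12%, 9.08%, 8.00% and 8.66%. In between, at 20.8 and 21.4 kb, a pair of sites of low MspI signal (mean 14.3 each) stood at 351.3% to 942.9%.

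The site of strongest MspI signal in each gene was picked on the denominator of the ratio, which favours a low ratio. Its ratio was below 100% in every gene and sample except Dsc2 in wild-type non-infarcted tissue. The Xirp2 site at 67523432 was nearly uncut by HpaII, with 6.13% in Neil3-null infarcted, 6.80% in Neil3-null non-infarcted, 7.96% in wild-type infarcted and 4.45% in wild-type non-infarcted tissue. In Popdc2 the site at 38377791 had 49.7%, 57.5%, 47.3% and 54.2%, and in Xirp1 the site at 120022733 had 24.0%, 34.6%, 38.6% and 29.9%. The Popdc2 site was lower in infarcted tissue of both genotypes, and the Xirp1 site was lower in Neil3-null and higher in wild-type infarcted tissue. For Jup (100374325) the ratios were 16.3% to 21.7%, for Cdh2 (16665744) 6.65% to 18.8% and for Ctnna3 (63480343) 38.0% to 57.9%. For Pkp2 (16230582) they were 21.7% to 43.0%, for Dsg2 (20594833) 26.0% to 46.6% and for Dsc2 (20054777) 62.3% to 107.4%.

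**Figure D3:**
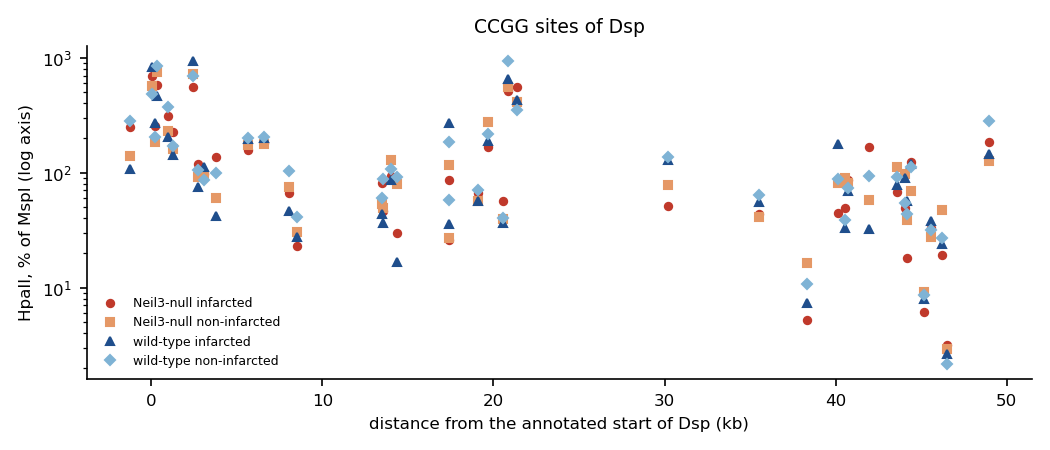
HpaII/MspI ratio in percent (log axis) at each of the 41 CCGG sites of Dsp against the distance from its annotated start, 1 point per site and sample. Sites at the start and at 20.8 and 21.4 kb from it reach 351.3% or more in some samples, and the site at 46.5 kb stays at 2.17% to 3.18%.

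The infarct comparison asked whether infarcted ventricle differed from non-infarcted ventricle at these genes, within each genotype. Popdc2, Jup and Xirp1 had lower HpaII/MspI ratios in infarcted tissue of both genotypes, which is the direction of more modified DNA. Popdc2 differed by -24.3 percentage points in Neil3-null and -13.2 in wild-type tissue. Xirp1 differed by -13.1 and -9.37, and Jup by -9.56 and -12.7. Against all genes these lie at percentiles 1.74 and 6.61 for Popdc2, 6.44 and 9.96 for Xirp1, and 10.1 and 6.98 for Jup. The median gene went the other way, by 2.09 points in Neil3-null and 4.84 in wild-type tissue, while the median of the 10 genes was -3.00 and -3.10. The size for the median gene depends on library scaling, as it was 0.257 and 0.299 with libraries rescaled to equal totals.

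Of the other genes, Dsp, Pkp2, Dsg2 and Xirp2 differed in sign between the genotypes. Dsc2 and Ctnna3 were higher in infarcted tissue of both genotypes, and Cdh2 was lower. Dsc2 lay at percentiles 84.1 in Neil3-null and 39.2 in wild-type tissue. Dsp, the desmosome's filament link, differed by 0.998 percentage points in Neil3-null and -11.0 in wild-type tissue, and Pkp2 by -7.98 and 1.76. The cadherin genes gave 12.1 and 2.13 for Dsc2, 1.52 and -3.47 for Dsg2, and -4.15 and -2.73 for Cdh2. Ctnna3 gave 1.71 and 5.57, and Xirp2 -1.84 and 8.08. In all, 6 of 10 genes were below 0 in Neil3-null tissue, where 38.8% of all genes were, and 6 of 10 in wild-type tissue, where 30.9% were. Below the median gene lay 9 of 10 in Neil3-null and 8 of 10 in wild-type tissue. The low interiors of Xirp1 and Popdc2 after infarct were known when the genes were chosen. Shares of the 10 genes are therefore a description and no independent support.

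By a rule of size of 20 percentage points in either direction, Popdc2 was the 1 gene of 10 called in Neil3-null tissue, against 9.63% of all genes, and none of the 10 was called in wild-type tissue, against 15.4%. These shares are near or under the background. A difference of -10 points or lower was met by Popdc2 and Xirp1 in Neil3-null tissue, against 9.45% of genes, and by Popdc2, Jup and Dsp in wild-type tissue, against 9.30%. Popdc2 alone met it in both genotypes, against 2.30% of genes. With libraries rescaled on dense gene ends, which brought HpaII/MspI ratios of all genes to about 0.5 of their size, the Neil3-null difference of Popdc2 was -10.5 and 2.14% of all genes reached 20 points. The infarcted over non-infarcted ratio of Popdc2 was 0.844 under that scaling and 0.822 without it, at percentile 1.08 of all genes. That percentile cannot change, because the scaling multiplies this ratio by the same factor in every gene.

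**Figure D4:**
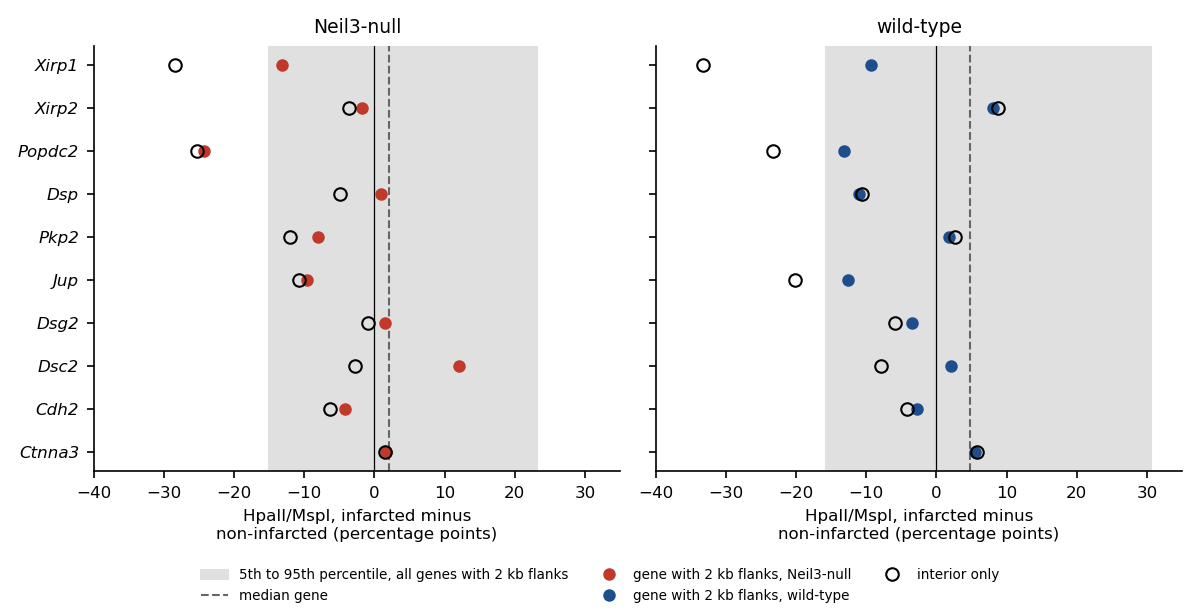
Infarcted minus non-infarcted HpaII/MspI ratio, in percentage points, for Neil3-null (left) and wild-type tissue (right), over the gene with 2 kb flanks (filled) and over its interior (open). The grey band spans the 5th to 95th percentile of all genes with flanks, and the interiors of Xirp1 (-28.4 and -33.3) and Popdc2 (-25.2 and -23.3) lie outside it in both panels.

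The interiors of Xirp1, Popdc2 and Jup were lower in infarcted tissue of both genotypes, and so was 1 end of each gene. Interiors alone were examined after the data had been seen, and the bodies of Xirp1 and Popdc2 were already known to be low after infarct from earlier work on these files, so these values are a description and no further support. The Xirp1 interior had 110.9% in Neil3-null infarcted and 139.4% in Neil3-null non-infarcted tissue, a difference of -28.4 points. In wild-type tissue it had 97.0% infarcted and 130.3% non-infarcted, a difference of -33.3. Both values lie under percentile 1, at 0.756 and 0.823 of 12032 gene interiors. At the lower-coordinate end of the same gene the ratio was higher in infarcted tissue, with 184.6% against 171.2% in Neil3-null and 160.3% against 153.1% in wild-type samples. At the higher-coordinate end (7 sites) it was lower, with 83.4% against 103.6% and 89.6% against 92.8%, or -20.2 and -3.29 points.

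Popdc2 was low after infarct in its interior and at its start. The interior had 76.2% infarcted against 101.4% non-infarcted in Neil3-null tissue and 71.8% against 95.2% in wild-type tissue, which gave -25.2 and -23.3 points (percentiles 1.12 and 1.87). Its start gave -34.4 and -9.37. For Jup the interior differed by -10.8 and -20.1. The end with its start (4 sites) was higher in infarcted tissue by 94.4 and 95.4 points, on ratios of 659.0% to 790.8%. The promoter motif at that end, of low MspI signal, was lower in wild-type infarcted tissue (519.0% against 546.2%) and higher in the Neil3-null. The opposite end of Jup (6 sites) was lower in infarcted tissue, by -15.2 and -2.92. Of the 10 interiors, 2 were lower by at least 20 points in both genotypes, Xirp1 and Popdc2, against 0.474% of all interiors. Below 0 in both genotypes were 7 of 10 interiors, against 20.5%. Interior medians were -5.67 in Neil3-null and -6.85 in wild-type tissue for the 10 genes, and 0.989 and 2.84 for all genes.

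The sums behind these ratios were also compared between libraries, as signal per 1000000 of the library's signal on autosomal sites. In the Xirp1 interior the HpaII signal was 9.79 in Neil3-null infarcted and 11.7 in Neil3-null non-infarcted tissue, and 8.28 in wild-type infarcted and 10.9 in wild-type non-infarcted tissue. The MspI signal was 9.39 infarcted and 8.79 non-infarcted in the Neil3-null pair, and 9.003 and 8.48 in the wild-type pair. HpaII was thus lower and MspI slightly higher in infarcted tissue of both genotypes. The Popdc2 interior had 9.24 infarcted against 12.3 non-infarcted for HpaII in Neil3-null and 9.67 against 11.7 in wild-type tissue, with MspI at 12.9 against 12.7 and 14.2 against 12.4. In the Jup interior HpaII was 45.4 against 48.1 in Neil3-null and 42.2 against 50.6 in wild-type tissue, with MspI at 34.8 against 33.7 and 33.8 against 33.7.

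At single sites the direction was shared across much of Popdc2. Of its 17 sites with a mean MspI signal of at least 20, 12 (70.6%) were lower in infarcted tissue of both genotypes and 0 were higher in both. In Jup 14 of 28 sites were lower in both genotypes and 5 higher. Xirp1 had 10 of 22 lower and 1 higher, Dsp 12 of 30 and 5, and Pkp2 7 of 18 and 2. Xirp2 and Dsc2 leaned the other way, with 3 of 19 lower and 7 higher, and with 2 of 9 lower and 5 higher. Dsg2 had 3 of 15 lower and 4 higher, Cdh2 20 of 58 and 17, and Ctnna3 78 of 282 and 73. Over the 498 sites of the 10 genes, 161 (32.3%) were lower in both genotypes, against 26.8% of all autosomal sites, and 119 (23.9%) higher, against 26.5%. Neighbouring sites of a gene share their DNA and are not independent.

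**Figure D5:**
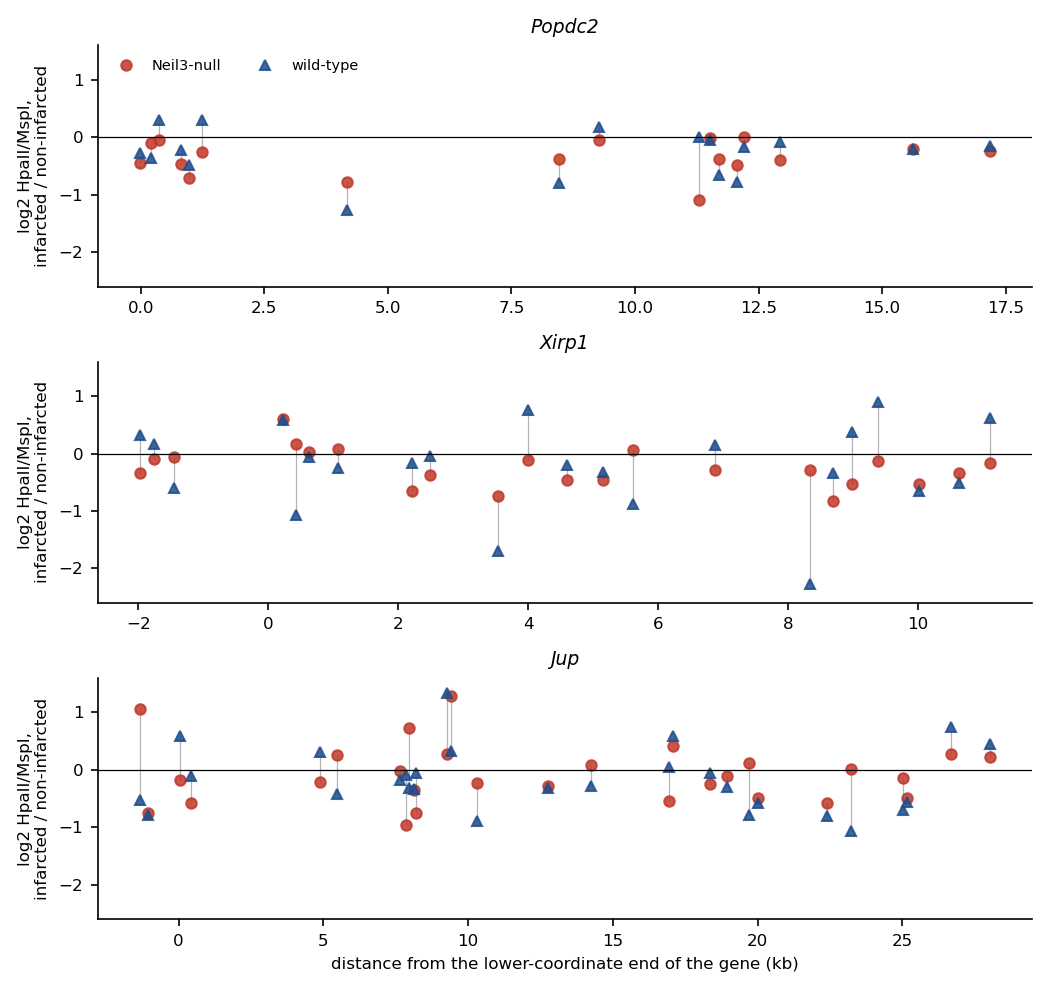
Log2 ratio of infarcted to non-infarcted HpaII/MspI at each site with a mean MspI signal of at least 20 in Popdc2, Xirp1 and Jup, against the distance from the lower-coordinate end of the gene, for Neil3-null (circles) and wild-type tissue (triangles), joined by a line per site. In Popdc2, 12 of 17 sites lie below 0 in both genotypes and none above 0 in both.

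A 2-fold difference in the same direction in both genotypes was met at 6 sites. It was lower at 4 of 498 sites, against 0.593% of all autosomal sites, and higher at 2, against 0.806%. In Dsp the site at 38165667, 14.4 kb from the start, had 29.9% infarcted against 79.8% non-infarcted in Neil3-null tissue and 16.7% against 92.0% in wild-type tissue. The neighbouring Dsp site at 38165316, chosen after its values were seen, had 93.6% against 129.4% and 86.6% against 108.0%, also lower in both. In the N-cadherin gene Cdh2 the site at 16771425 had 12.2% against 67.5% in Neil3-null and 11.7% against 56.7% in wild-type tissue. A second Cdh2 site, at 16787139, had 49.4% against 138.3% and 68.5% against 160.6%. In Ctnna3 the site at 64396279 had 10.2% against 29.1% and 8.75% against 23.5%.

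Both sites that were higher in infarcted tissue lie in Ctnna3. The site at 63556384 had 142.4% infarcted against 34.7% non-infarcted in Neil3-null tissue and 146.4% against 43.0% in wild-type tissue. The site at 63992555 had 75.3% against 32.0% and 68.8% against 33.0%. All 6 sites are in the interiors of their genes, where most sites of the 10 genes lie, such as 430 of 437 in Ctnna3. None is in Popdc2, Xirp1 or Jup, which hold 17, 22 and 28 of the 498 sites. At the shares of all autosomal sites given above, few or no calls would be expected there, so their absence says little.

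The genotype comparison set Neil3-null beside wild-type tissue in the same state. No gene reached 20 points in HpaII/MspI, against 10.6% of all genes in infarcted and 8.26% in non-infarcted tissue. Xirp1 was higher in Neil3-null tissue, by 9.57 points in infarcted and 13.3 in non-infarcted samples. Pkp2 was higher by 4.96 and 14.7, and Popdc2 by 0.369 and 11.4. Those 3 of the 10 genes differed by at least 10 points in non-infarcted tissue, against 27.3% of all genes, so this share is near the background. Jup was higher by 5.23 and 2.13, Ctnna3 by 0.162 and 4.02, and Cdh2 lower, at -2.0 and -0.571. Dsp (4.71 and -7.33), Dsc2 (8.33 and -1.65), Dsg2 (2.95 and -2.05) and Xirp2 (-1.40 and 8.52) changed direction between tissue states. Below 0 were 2 of 10 genes in infarcted tissue, against 47.8% of all genes, and 4 of 10 in non-infarcted tissue, against 34.0%. Each genotype difference shares a sample with each infarct difference, so the values stand side by side and are not compared.

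At 8 sites the genotype difference was 2-fold in the same direction in both tissue states. It was higher in Neil3-null tissue at 3 sites, against 0.683% of autosomal sites, and lower at 5, against 0.471%. The higher sites are all in Ctnna3. The site at 63461858 had 26.8% in Neil3-null and 11.9% in wild-type infarcted tissue, and 40.7% in Neil3-null and 6.98% in wild-type non-infarcted tissue. The sites at 63567580 and 63932923 had 37.1% against 17.6% and 32.5% against 16.0% in infarcted tissue. Among the lower sites, Dsg2 at 20599029 had 21.7% in Neil3-null and 66.7% in wild-type infarcted tissue, and 14.1% in Neil3-null and 54.7% in wild-type non-infarcted tissue. Cdh2 at 16704717 had 50.4% against 198.0% and 79.8% against 189.9%. In Ctnna3 the lower sites were 63661566 (11.7% against 48.0% infarcted), 63709930 (39.0% against 92.9%) and 64816003 (31.9% against 74.0%). No site was called in both the infarct and the genotype comparison. With so few called sites this says little, and the overlap over all autosomal sites was not counted.

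The C+mC/MspI ratio, which falls where 5hmC makes up more of the MspI signal, was lowest at Xirp2, Cdh2, Pkp2 and Ctnna3. Xirp2 had 72.4% in Neil3-null infarcted, 77.7% in Neil3-null non-infarcted, 88.2% in wild-type infarcted and 70.6% in wild-type non-infarcted tissue. Cdh2 had 83.7%, 82.7%, 82.2% and 85.3%, and Ctnna3 87.5%, 87.0%, 90.1% and 85.5%, both under the median gene at 102.6%, 102.2%, 100.6% and 104.1%. Pkp2 had 80.7%, 82.5%, 92.7% and 85.4%, and Dsc2 95.02%, 91.3%, 91.3% and 86.6%. These 5 genes were below 100% in every sample. Jup and Xirp1 were above it throughout, at 112.3% to 123.8% and 112.9% to 123.0%. 

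No gene of the 10 differed by 20 points in C+mC/MspI in any comparison. The share of all genes that did was 5.22% for infarct in Neil3-null, 19.0% for infarct in wild-type, 5.93% for genotype in infarcted and 14.3% for genotype in non-infarcted tissue. The larger shares belong to the comparisons that use the wild-type non-infarcted C+mC library. Popdc2 was lower in infarcted tissue in both genotypes, by -12.1 and -14.7 points. The Popdc2 interior alone differed by -16.7 in Neil3-null and 2.68 in wild-type tissue, so its direction was not shared there. Xirp2 differed by -5.29 in Neil3-null and 17.6 in wild-type tissue, Dsg2 by 11.3 and -8.36, and Dsp by 7.57 and -11.4. Over the whole gene Xirp1 differed by -4.01 in Neil3-null and 4.09 in wild-type tissue. In its interior, examined after the data had been seen, the C+mC ratio was lower in infarcted tissue of both genotypes, with 112.2% infarcted against 134.9% non-infarcted in Neil3-null and 124.5% against 158.2% in wild-type tissue. Between genotypes Pkp2 (-12.0 in infarcted and -2.95 in non-infarcted tissue), Xirp1 (-10.1 and -1.97) and Popdc2 (-6.89 and -9.47) were lower in Neil3-null tissue in both states.

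Other junction genes were described by 3 lists, none of which had a median as low as that of the 10 genes. The 10 genes and the lists were chosen with earlier results of these data known. Among 12 partners of the adherens junction and area composita, 7 were below 0 in the Neil3-null and 4 in the wild-type infarct difference, with medians of -0.913 and 5.24. At the ends of this list were Afdn (-3.22 and -6.89), a linker of nectins to actin, Ctnnd1 (-0.878 and -5.21), which encodes p120-catenin, Nectin2 (15.4 and 8.51) and Vezt (-0.949 and 13.3). Among 12 desmosomal genes of epithelia, 6 and 5 were below 0, with medians of 0.0938 and 1.29. Dsg1b (-14.5 and -6.09) and Dsg3 (-13.3 and -0.368) were lowest, and Pkp3 (19.1 and 13.2) and Pkp1 (5.01 and 9.46) highest. Among 18 other disc proteins and Popeye relatives, 9 and 8 were below 0, with medians of 0.480 and 0.327. The connexin-43 gene Gja1, of the gap junctions, gave -23.6 in Neil3-null and -44.5 in wild-type tissue, and Csrp3, of a muscle LIM protein, 2.88 and -31.0. Ilk (37.7 and 6.0) and Tmem43 (12.9 and 0.0251) were highest.

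Marker genes of cell types also moved with infarct state. Bulk tissue cannot tell a different share of cell types apart from a different modification level per cell. Cardiomyocyte markers were below 0 at 11 of 14 genes in each genotype, with medians of -5.91 in Neil3-null and -11.2 in wild-type tissue. Tnnt2 (-7.16 and -30.4) and Tnnc1 (-49.1 and -12.7) were lowest, Ckm (5.66 and 6.57) and Myl3 (17.6 and -20.8) highest. Leukocyte markers were below 0 at 2 and 3 of the 13 measured genes, with medians of 4.58 and 9.97. Mpo (22.5 and 37.6) and Irf8 (24.3 and 23.8) were highest, Adgre1 (-3.54 and -8.31) and Csf3r (1.80 and -1.96) lowest. Fibroblast markers had medians of 8.39 and 18.8, from Col1a1 (10.1 and -2.75) and Dcn (4.35 and 4.05) to Pdgfra (13.4 and 28.5) and Tcf21 (8.48 and 44.2). Endothelial markers had -1.21 and -2.11, from Cdh5 (-7.63 and -13.3) and Tie1 (-2.62 and -15.7) to Emcn (-2.05 and 3.53) and Erg (0.0935 and 11.5). Epithelial markers had 10.5 and 5.98, from Krt5 (-17.2 and 3.59) and Grhl2 (5.85 and -1.59) to Krt18 (33.3 and 21.4). The median level of the cardiomyocyte list was 127.6%, 128.4%, 118.0% and 130.0%, and that of the leukocyte list 117.2%, 111.2%, 124.0% and 104.6%, in Neil3-null infarcted, Neil3-null non-infarcted, wild-type infarcted and wild-type non-infarcted tissue. The part of cell composition in the differences at Popdc2, Xirp1 and Jup was not tested.

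An additive model over the 4 samples, with infarct and genotype as terms and 1 residual degree of freedom, was fitted with limma to the log2 HpaII/MspI ratio of all 16887 genes. It assumes the same infarct difference in both genotypes. At an adjusted p of 0.05 the infarct term called 0 genes (0%) and the genotype term 2 (0.0118%), none of them among the 10. The infarct term called 0 genes under the 4 other settings of the model as well. At an unadjusted p under 0.05 the infarct term held 2125 genes (12.6%) and 1 of the 10, Popdc2. Centred on the median gene, limma's infarct term held 1774 genes (10.5%) and 3 of the 10, Popdc2, Xirp1 and Jup. By limma, Popdc2 had a log2 difference of -0.22 ± 0.0677 (SE; unadjusted p = 0.0156, adjusted p = 0.306, with 0.193 to 0.340 over the alternatives), lower in both infarcted samples. Xirp1 had -0.13 ± 0.0636 (limma, adjusted p = 0.470) and Jup -0.11 ± 0.0636 (limma, adjusted p = 0.536). For the genotype term the lowest unadjusted p among the 10 genes was that of Xirp1, at 0.0843 with limma (adjusted p = 0.803), with a log2 difference of 0.13 ± 0.0636, higher in both Neil3-null samples.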

How the data were processed

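HMST-seq values of 4 left ventricle samples, 1 per group, were analysed. DNA was isolated with the Dneasy Blood and Tissue Kit, per the labels' protocols. The deposited files hold 1 normalized signal per CCGG site for the HpaII, C+mC and MspI libraries, made by the authors on build mm10, per the submitters' processing notes; the method of normalization was not named there.

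Sites listed in all 4 samples within a gene span ± 2 kb were summed per library, and the HpaII/MspI and C+mC/MspI ratios and their differences were formed with no signal minimum. A gene was called at 20 percentage points, and a site (mean MspI signal of at least 20) at 2-fold in the same direction in both pairs. Background genes held at least 5 sites. An additive model (limma 3.58.1 in R 4.3.3, Benjamini-Hochberg at 0.05) was tested on simulated data first. Python 3.11.15 with pandas 2.3.3 and numpy 2.4.6 did the rest. The genes and lists were chosen with earlier results of these data known, including the low interiors of Xirp1 and Popdc2 after infarct, so these are not independent support. Named were all 10 genes, their called sites, sites within 1 kb of a start, the site of highest MspI signal, and the 2 lowest and 2 highest genes of each list by mean infarct difference, except 1 gene that is not reported here. Sex chromosomes, exons and proteins were not analysed here.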

Additional observations from a re-analysis of the deposited data

Results flagged for a closer look

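In HpaII/MspI the infarct difference of Dsp, Dsg2, Xirp2 and Pkp2 had opposite signs in Neil3-null and wild-type tissue, and so had that of Dsg2, Dsp, Jup, Cdh2, Xirp2, Pkp2 and Xirp1 in C+mC/MspI. The genotype difference in HpaII/MspI had opposite signs in infarcted and non-infarcted tissue for Dsp, Dsg2, Xirp2 and Dsc2. In C+mC/MspI this was so for Dsp, Dsg2, Xirp2, Jup, Cdh2 and Ctnna3. With 1 sample per group the difference between the genotypes was not tested. In HpaII/MspI, the Neil3-null infarct difference minus the wild-type one was 12.0 percentage points for Dsp, 9.97 for Dsc2 and 5.00 for Dsg2. For Xirp2 it was -9.92 and for Pkp2 -9.74. The median gene stood at -2.6. Among all genes, Dsp lay at percentile 87.1, Dsc2 at 84.5, Dsg2 at 75.0, Pkp2 at 26.5 and Xirp2 at 26.0.

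In C+mC/MspI the same quantity was 19.7 points for Dsg2, 19.0 for Dsp, 12.8 for Jup and 4.12 for Cdh2. It was -22.9 for Xirp2, -9.06 for Pkp2, -8.10 for Xirp1 and -4.13 for Ctnna3. The median gene stood at 3.71. In percentiles of all genes, Dsg2 lay at 82.4, Dsp at 81.5, Jup at 71.7 and Cdh2 at 51.2. Ctnna3 lay at 26.8, Xirp1 at 17.3, Pkp2 at 15.5 and Xirp2 at 3.31. The wild-type infarct difference in this ratio uses the C+mC library with the widest spread over genes. Its part in these values was not tested.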

How the results depend on the processing

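The infarct difference in HpaII/MspI stayed negative under all 11 alternatives for Popdc2 (-47.2 to -10.5 in Neil3-null and -23.3 to -7.55 in wild-type tissue), Xirp1 (-28.4 to -4.81 and -33.3 to -5.75) and Jup (-30.3 to -2.77 and -20.1 to -7.60). Not all of these alternatives could have changed the sign. Leaving out sites in another gene removed nothing except in Ctnna3. Setting values relative to the median gene, which was above 0, could only lower them. Interiors alone were an alternative chosen after seeing the data. The infarct difference also kept its sign for Dsp, Cdh2 and Ctnna3 in wild-type and for Pkp2 in Neil3-null tissue. It changed sign in Neil3-null tissue for Dsp (-9.80 to 3.5), Dsg2 (-3.60 to 2.10), Cdh2 (-6.40 to 4.33), Ctnna3 (-1.27 to 2.15) and Xirp2 (-14.5 to 0.956), in wild-type tissue for Pkp2 (-6.86 to 5.49), Dsg2 (-8.31 to 1.84) and Xirp2 (-0.965 to 9.90), and in both for Dsc2 (-14.6 to 17.9 and -7.83 to 27.4). The opposite signs of Dsp, Dsg2, Xirp2 and Pkp2 between genotypes thus did not hold under every alternative.

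The number of the 10 genes called is given here beside the share of all genes called under the same setting. At 10 percentage points in place of 20, HpaII/MspI called 3 for infarct in Neil3-null (29.8% of all genes), 3 for infarct in wild-type (39.9%) and 3 for genotype in non-infarcted tissue (27.3%). C+mC/MspI called 2 (23.4%) and 3 (43.2%) for infarct in Neil3-null and wild-type tissue, and 3 (26.3%) and 3 (37.8%) for genotype in infarcted and non-infarcted tissue. With the median of site ratios, HpaII/MspI called 2 for infarct in Neil3-null (19.9%) and 2 in wild-type tissue (24.3%), and C+mC/MspI 2 for infarct in wild-type (25.0%) and 2 for genotype in non-infarcted tissue (23.7%). In interiors alone, an alternative chosen after seeing the data, HpaII/MspI called 2 for infarct in Neil3-null (6.14%), 3 for infarct in wild-type (9.72%) and 1 for genotype in non-infarcted tissue (5.10%), and C+mC/MspI called 1 in each of these (4.70%, 12.8% and 10.9%). Rescaling on dense gene ends, which lowers the ratios of all genes alike, left 0 for infarct in Neil3-null tissue (2.14%). Leaving out the site of highest MspI signal gave 1 for infarct in wild-type tissue (19.9%), and setting values relative to the median gene gave 1 there in C+mC/MspI (17.1%).

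At 1.5-fold, 11 sites were higher (3.70% of all sites) and 23 lower (3.06%) for infarct, and 15 higher (3.09%) and 16 lower (2.40%) for genotype, of 498. At a mean MspI signal of at least 40, of 263 sites 1 was higher (0.560%) and 1 lower (0.408%) for infarct, and 0 were lower for genotype (0.264%). limma's genotype term called 1 gene of all when centred on the median gene and 0 with at least 10 sites. Apart from the dense-end scaling, the cause of these changes was not tested. The median gene's infarct difference was 0.257 in Neil3-null and 0.299 in wild-type tissue with equal library totals, and 2.51 and 1.12 on dense ends. No paired analysis was possible because the labels give no replicate numbers and each group holds 1 sample, so none could be left out either. Infarct was set within genotype only through the genotype term of the limma model.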
